A study of Mus musculus with 90 samples.

Results

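The genes described here encode the matrix metalloproteinases (MMPs), the ADAMTS proteases, the ADAMTS-like proteins and the tissue inhibitors of metalloproteinases (TIMPs) of the mouse. They were taken by name: every gene whose symbol in the probe annotation began with Mmp, Adamts, Adamtsl or Timp followed by a digit, with Mmp8 and Mmp12 left out, gave 40 of the 18193 genes on the array. They comprised 16 Mmp, 15 Adamts, 5 Adamtsl and 4 Timp genes. Each gene was read from the brightest of its probe sets by mean level, a choice that had to be made for 21 of the 40. Mmp15, Mmp21, Mmp25, Mmp27, Mmp28, Adamts2, Adamts13, Adamts14 and Adamts17 were not analysed here.

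The samples were 90 subcutaneous melanoma allografts in mice of strain B6.cBrd, each hybridised to 1 Affymetrix expression array. All groups, controls included, carried an Hgf transgene together with the R24C change of Cdk4 on both alleles. The promoter that drives the transgene and the age of the mice were not given in the sources used here. Mice received PBS (10 ml/kg, 7 arrays), control IgG (10 mg/kg, 22 arrays) or an antibody to mouse PD-L1 (10 mg/kg). The antibody, given in PBS, was of mouse IgG1 type and carried the Fc change D265A, and the series' design describes the control IgG as of the same format. The antibody-treated tumours were named by what their volume did: Responder (regressing, 27 arrays), NonResponder (growing, 23), Stabilization (no change between measurements, 3), Relapse (regrown after regression, 6) and GrowthDelay (late outgrowth, 2). Groups were thus defined by growth, and tumours were harvested after differing numbers of doses. The labels do not say that each array came from its own mouse, so p-values measure only the spread between these samples, which may be technical.

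MMPs and ADAMTS proteases are zinc enzymes, made as inactive proenzymes, that cut the extracellular matrix: fibrillar collagens, gelatin, basement membrane and the large proteoglycans. TIMPs bind their active sites and hold them in check, and at the cell surface TIMP2 also takes part in the activation of MMP2 by the membrane-anchored MMP14. In tumours much of this family is made by fibroblasts, endothelial cells and myeloid cells of the stroma as well as by the tumour cells. ADAMTS-like proteins share the ancillary domains of the ADAMTS family but have no protease domain, and several bind fibrillin microfibrils.

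Values are log2 expression, so a difference of 1 is a 2-fold change. A gene is called changed where limma's moderated test gave a two-sided p under 0.05 after Benjamini-Hochberg adjustment across the 18193 genes, and differences are log2 values with the standard error (SE) of that fit. Title numbers of the samples fall into separate ranges, here called title series. Responder, NonResponder and Relapse tumours occur in the larger (53 arrays) as well as the smaller one (25 arrays), whereas Stabilization tumours lie in the smaller one and GrowthDelay tumours in the larger one. A further 8 of the 22 control IgG and 4 of the 7 PBS arrays lie in title series that hold 1 group each. With series as a term, those 12 arrays inform the residual variance alone, so fitted differences rest on 14 control IgG and 3 PBS arrays, while the levels printed for these groups cover all of them. The pigment-cell markers Dct, Tyrp1, Mitf, Sox10, Pmel and Mlana lay above the 87th percentile of mean expression over all genes, and Tyr lay at the 6.64th. In 4 arrays the mean correlation with the other arrays was under 0.94: Responder replicates 20 and 21, NonResponder replicate 14 and Stabilization replicate 1. These 4 also had the lowest mean pigment-cell marker levels of the 90 arrays (7.40 to 9.35), and differences called with Stabilization are given with and without them. Responder replicate 20 and NonResponder replicate 14 ranked 1 and 2 by mean B cell (10.98, 10.76), lymph node stroma (9.46, 9.10) and T cell markers (10.08, 10.01). Responder replicate 21 ranked 1 in skeletal muscle markers (13.98). Stabilization replicate 1 ranked 1 in fibroblast (11.90), macrophage (12.18) and neutrophil markers (8.54). Replicate numbers here were assigned in accession order, are not in the labels and only name an array.

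Most of the family was dim on these arrays. The mean of 29 of the 40 genes lay under 7.01, the mean of the median gene. The 5 genes with the highest means were Mmp2 (gelatinase A) at 11.29, Timp2 at 10.91, Mmp14 at 10.65, Timp1 at 9.41 and Adamts1 at 9.21; probe sets differ in response, so these levels are not ranked against each other. The spread over the 90 arrays was very unequal. The SD was 1.68 for Mmp3 (stromelysin 1), which ran from 4.53 to 12.40, 1.25 for Mmp13 (the main interstitial collagenase of the mouse), 1.01 for Adamts15 and 0.90 for Timp1. It was 0.15 for Mmp16, Mmp1a and Mmp1b, whose arrays spanned less than 1 log2 unit.

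The MMP cluster of mouse chromosome 9 holds 7 of these genes with a promoter in the RefSeq table, in this order: Mmp13, Mmp1b, Mmp3, Mmp1a, Mmp10, Mmp20 and Mmp7. With Stabilization 3 of them rose, so the 100 bases before the start of those 3 are shown, beside those of Mmp14 and Timp1, which rose as well and lie on other chromosomes (RefSeq, build GRCm38.p6). Capitals mark TGAGTCA, the site of the AP-1 factors, on either strand (read as TGACTCA on the other), and TATAAA, searched on the gene's strand; the motifs do not overlap.
Mmp13 (chr9:7272414-7272513, plus strand): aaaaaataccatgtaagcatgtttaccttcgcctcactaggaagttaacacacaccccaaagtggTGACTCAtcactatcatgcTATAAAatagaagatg
Mmp3 (chr9:7445722-7445821, plus strand): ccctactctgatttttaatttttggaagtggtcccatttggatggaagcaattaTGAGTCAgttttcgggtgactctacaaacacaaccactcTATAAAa
Mmp10 (chr9:7502242-7502341, plus strand): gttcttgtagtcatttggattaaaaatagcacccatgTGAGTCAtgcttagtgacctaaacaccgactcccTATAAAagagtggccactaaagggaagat
Mmp14 (chr14:54431498-54431597, plus strand): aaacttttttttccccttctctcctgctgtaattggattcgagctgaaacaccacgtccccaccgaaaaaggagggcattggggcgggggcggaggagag
Timp1 (chrX:20870066-20870165, plus strand): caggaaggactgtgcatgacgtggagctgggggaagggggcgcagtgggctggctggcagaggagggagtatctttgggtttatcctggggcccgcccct
Over windows of 250 bases before to 50 after the start, TGAGTCA was found in 6 of the 25 members with a window (5.20% of all 32851 windows), TATAAA in 9 (8.32%) and both in 6 (0.624%). A member was counted if any of its windows held the motif, whereas the shares are of windows, and the 25 members had 27 windows. The 6 with both were Mmp13, Mmp1b, Mmp3, Mmp1a, Mmp10 and Mmp7, all in the cluster on chromosome 9. Mmp7 had a further window with neither motif. In the Mmp13, Mmp3 and Mmp10 promoters printed above the AP-1 letters begin at positions -35, -46 and -63 from the start. The genes with both motifs did not move alike: with Stabilization Mmp13, Mmp3 and Mmp10 rose, and Mmp1a (-0.21), Mmp1b and Mmp7 (-0.22) did not pass. Between Responder and NonResponder Mmp13 rose, Mmp7 fell and the others did not pass. Mmp14 and Timp1 held neither motif in their windows, which says only that these letters are not there.

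In regressing tumours 9 protease and ADAMTS-like genes and 1 inhibitor gene were higher than in growing ones. Between Responder and NonResponder tumours 15 of the 40 genes were called, 10 higher and 5 lower, where 47% of all genes were called, 17.2% higher and 29.8% lower. The median difference was 0.09 over the 40 genes and -0.06 over all genes. Those that rose were the collagenase Mmp13, the gelatinase Mmp2, the membrane-anchored Mmp14 and Mmp23, Adamts5, Adamts10, Adamts12, Adamts15, Adamtsl4 and Timp3. Those that fell were Mmp7, Mmp24, Adamts8, Adamts16 and Adamts18, with differences of -0.19 to -0.12. Among the 11 members with means at or above the median gene, 5 rose and none fell, against 26.3% and 22.1% of all genes that bright. Among the 29 dimmer members 5 rose and 5 fell, against 8.18% and 37.5%. For the 25 members that did not pass, differences ran from -0.13 for Adamts20 to 0.72 for Mmp3 (adjusted p = 0.0935). Responder replicate 21, which stands apart, was the highest of its group in Mmp14, Mmp23, Adamts10, Adamts12, Adamts15, Adamtsl4 and Timp3. NonResponder replicate 14, which also does, was the highest of its group in Mmp13, Mmp23, Adamts5, Adamts10, Adamts12, Adamts15, Adamtsl4 and Timp3. Of the genes that rose, Mmp2, Adamts5 and Adamts10 did not pass in every alternative fit. The others did, also without the 4 arrays that stand apart.

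**Figure D1:**
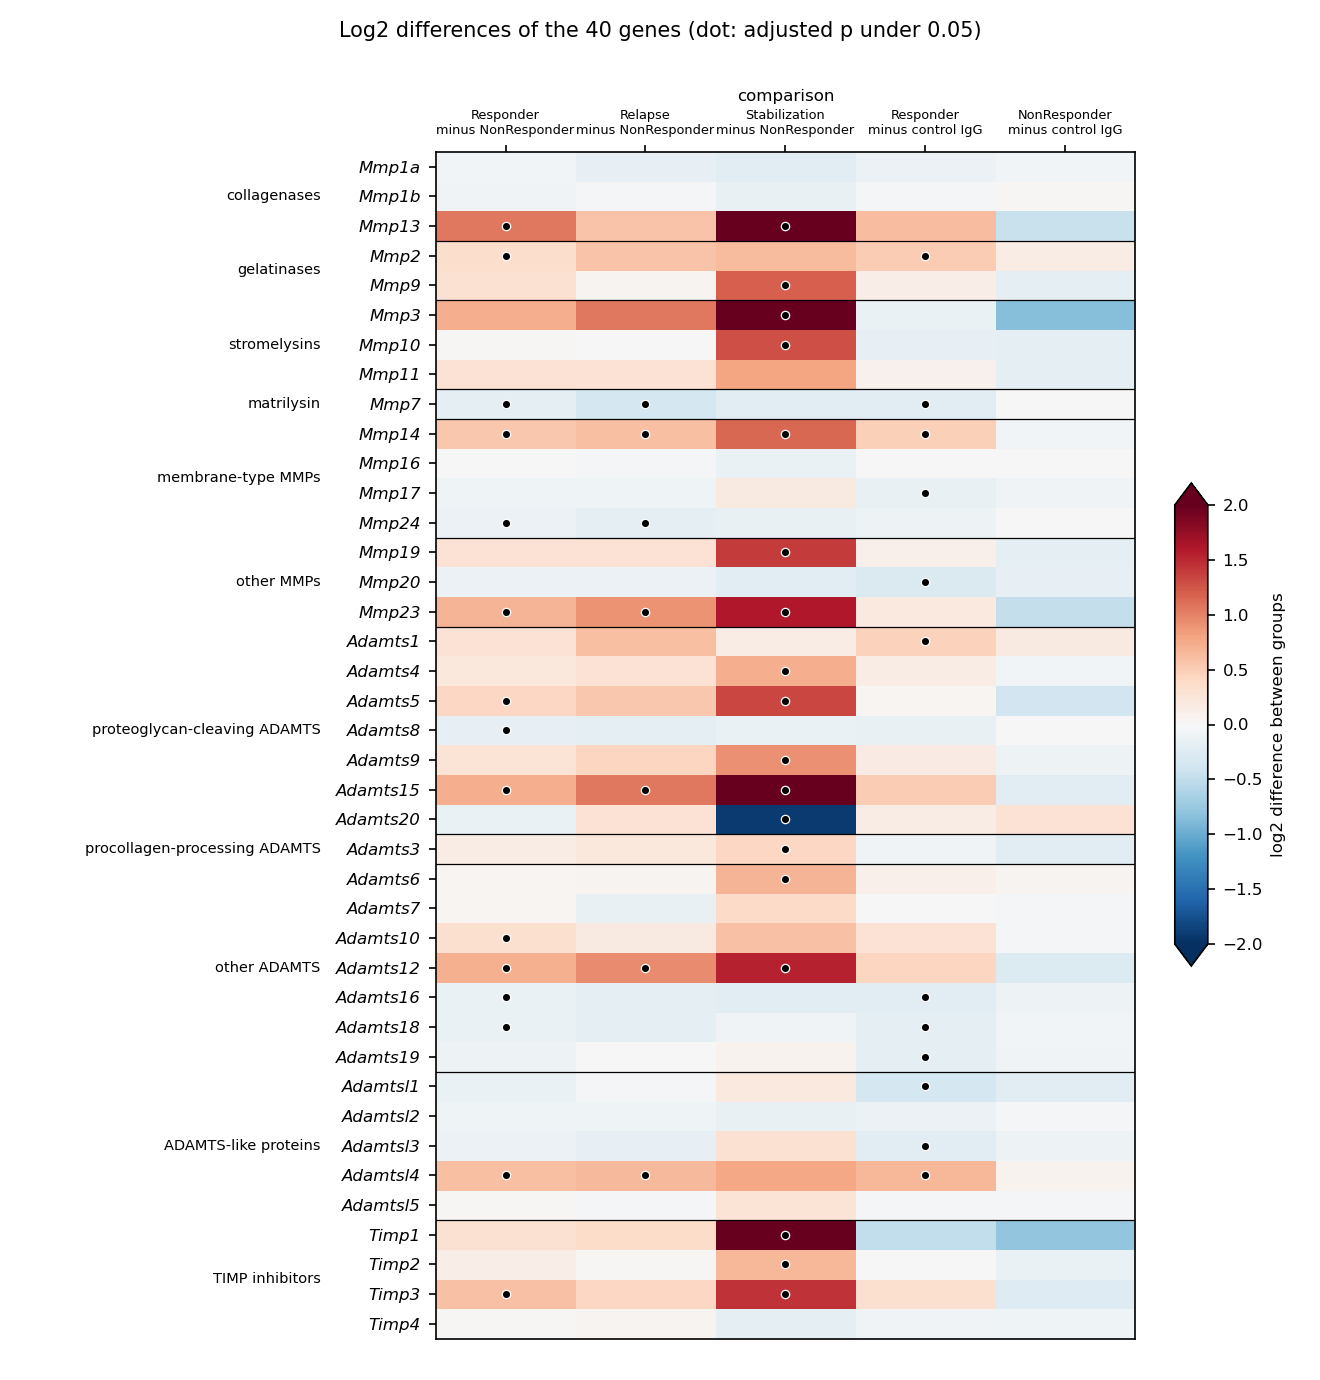
Log2 differences between groups for the 40 genes (rows, by role) in 5 comparisons (columns); colour gives the difference, with values beyond 2 at the end of the scale, and a dot marks an adjusted p under 0.05. Mmp14, Mmp23, Adamts12 and Adamts15 carry a dot in each of the 3 comparisons against NonResponder, and the column for NonResponder against control IgG holds no dot.

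Of the 3 collagenases 1 passed. In NonResponder tumours Mmp13 was at 3.87 in the lowest array, 5.52 at the median and 8.74 in the highest, and in Responder tumours at 4.47, 6.51 and 9.75. The groups overlapped over most of their range, with 23 of 27 Responder arrays above the NonResponder median. The difference was 1.06 ± 0.28 (SE), a 2.09-fold rise (adjusted p = 0.00275). The highest NonResponder value came from replicate 14, one of the arrays that stand apart, and the difference was 1.17 ± 0.26 without those 4. Mmp1a and Mmp1b, the mouse relatives of human interstitial collagenase, were near the floor of the array in every group, with highest values of 3.65 and 3.36.

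The gelatinase Mmp2 and its surface activator Mmp14 were bright in every group. Mmp2 lay at 10.09, 11.25 and 12.02 (lowest, median, highest) in NonResponder and at 10.47, 11.62 and 12.28 in Responder tumours, a rise of 0.36 ± 0.14 (adjusted p = 0.0304). Mmp14 lay at 9.41, 10.45 and 11.31 in NonResponder and at 9.81, 10.97 and 12.44 in Responder tumours, a rise of 0.54 ± 0.13 (adjusted p = 0.00164). For Mmp14, 21 of 27 Responder arrays exceeded the NonResponder median and 5 exceeded every NonResponder array. Both of its other probe sets gave the same direction and passed, at 0.52 and 0.38. The other gelatinase, Mmp9, which neutrophils and macrophages also make, differed by 0.30 ± 0.16 and did not pass (adjusted p = 0.0985). Even so, 5 Responder arrays lay above the highest NonResponder value of 5.99, and replicate 21, which stands apart, reached 8.54. Mmp23, a membrane-anchored MMP that is shed from the cell, lay at 5.66, 6.51 and 8.38 in NonResponder and at 6.04, 6.92 and 9.67 in Responder tumours. Its rise was 0.68 ± 0.20 (adjusted p = 0.00583).

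Among the ADAMTS proteases that cut aggrecan or versican, 2 of 7 rose and 1 fell. Adamts15 was low in most tumours of both groups, at 4.43, 4.85 and 7.19 in NonResponder and 4.44, 5.18 and 8.56 in Responder tumours. It rose by 0.72 ± 0.24 (adjusted p = 0.0142), with 18 of 27 Responder arrays above the NonResponder median. Adamts5, the main aggrecanase of mouse cartilage, lay at 6.02, 6.74 and 8.29 against 6.27, 7.04 and 8.96, a rise of 0.41 ± 0.17 (adjusted p = 0.0368). Adamts8, at a median of 5.28 in NonResponder and 5.13 in Responder tumours, was lower by a difference of -0.16 ± 0.05 (adjusted p = 0.0119). Adamts1, Adamts4, Adamts9 and Adamts20 did not pass, although the dimmer probe set of Adamts4 did, at 0.35 ± 0.14 (adjusted p = 0.0399).

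Of the other ADAMTS proteases, Adamts12, which cuts cartilage oligomeric matrix protein, also rose. It lay at 5.86, 6.43 and 7.81 in NonResponder and at 6.21, 6.98 and 9.25 in Responder tumours, so that 22 of 27 Responder arrays exceeded the NonResponder median and 7 exceeded every NonResponder array. The rise was 0.71 ± 0.19 (adjusted p = 0.00273). Adamts10, which acts on fibrillin microfibrils, lay at 6.75, 7.14 and 8.37 against 6.91, 7.28 and 9.26, a rise of 0.31 ± 0.11 (adjusted p = 0.0212). Its dimmer probe set moved the other way, by -0.19 (adjusted p = 0.00294), so its direction depends on the probe set. Adamtsl4, whose protein sits on fibrillin fibres, lay at 5.41, 6.24 and 7.53 against 6.08, 6.66 and 9.42, with 23 of 27 Responder arrays above the NonResponder median. It rose by 0.60 ± 0.15 (adjusted p = 0.00212).

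The small declines were all in dim genes. Mmp7 (matrilysin, known from epithelia) had the smallest p of the family: it lay at 5.37, 5.67 and 6.32 in NonResponder and at 5.14, 5.50 and 5.92 in Responder tumours. The difference was -0.19 ± 0.04 (adjusted p = 0.00109), and 22 of 27 Responder arrays lay under the NonResponder median. Medians in NonResponder and Responder tumours were 6.69 and 6.51 for Mmp24, 3.80 and 3.67 for Adamts18, and 6.75 and 6.70 for Adamts16. Their differences were -0.12, -0.14 and -0.13 (SE at most 0.05, adjusted p between 0.0197 and 0.0252). The other Adamts16 probe set, a dimmer one, differed by -0.01 (adjusted p = 0.888). Mmp24 and Adamts18 each had 2 other probe sets, all with a negative difference, of which 1 each passed. Centring every array on its median shifted the median difference of all genes from -0.06 to -0.14. Under it 7 members were higher and 13 lower, and the share of higher genes among all those called went from 36.7% to 18.4%.

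Timp3 was the TIMP called between regressing and growing tumours on its brightest probe set, and Timp2 passed on dimmer ones. TIMP3 is bound to the matrix and, unlike the other TIMPs, is a strong inhibitor of ADAMTS4, ADAMTS5 and ADAM17. It lay at 7.65, 8.09 and 9.61 in NonResponder and at 7.85, 8.65 and 10.91 in Responder tumours. The rise was 0.59 ± 0.17 (adjusted p = 0.00593), 23 of 27 Responder arrays lay above the NonResponder median, and all 3 of its other probe sets rose too. Timp1, a secreted inhibitor, had medians of 9.19 and 9.32 and a difference of 0.30 ± 0.23 (adjusted p = 0.26). Timp2 differed by 0.14 ± 0.08 (adjusted p = 0.124) on its brightest probe set, whereas the next brightest 2 of its 5 other probe sets, at 0.37 and 0.48, both passed. Timp4 differed by 0.02 ± 0.06. Mmp19 did not pass on its brightest probe set (0.29 ± 0.13, adjusted p = 0.0606) and did on the other (0.94 ± 0.24, adjusted p = 0.00253). Dimmer probe sets of Adamts3 and Mmp16 passed with the sign opposite to the chosen one, at -0.12 and -0.16. Over the 36 further probe sets of the 21 genes that had more than 1, 26 shared the sign of the chosen probe set.

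**Figure D2:**
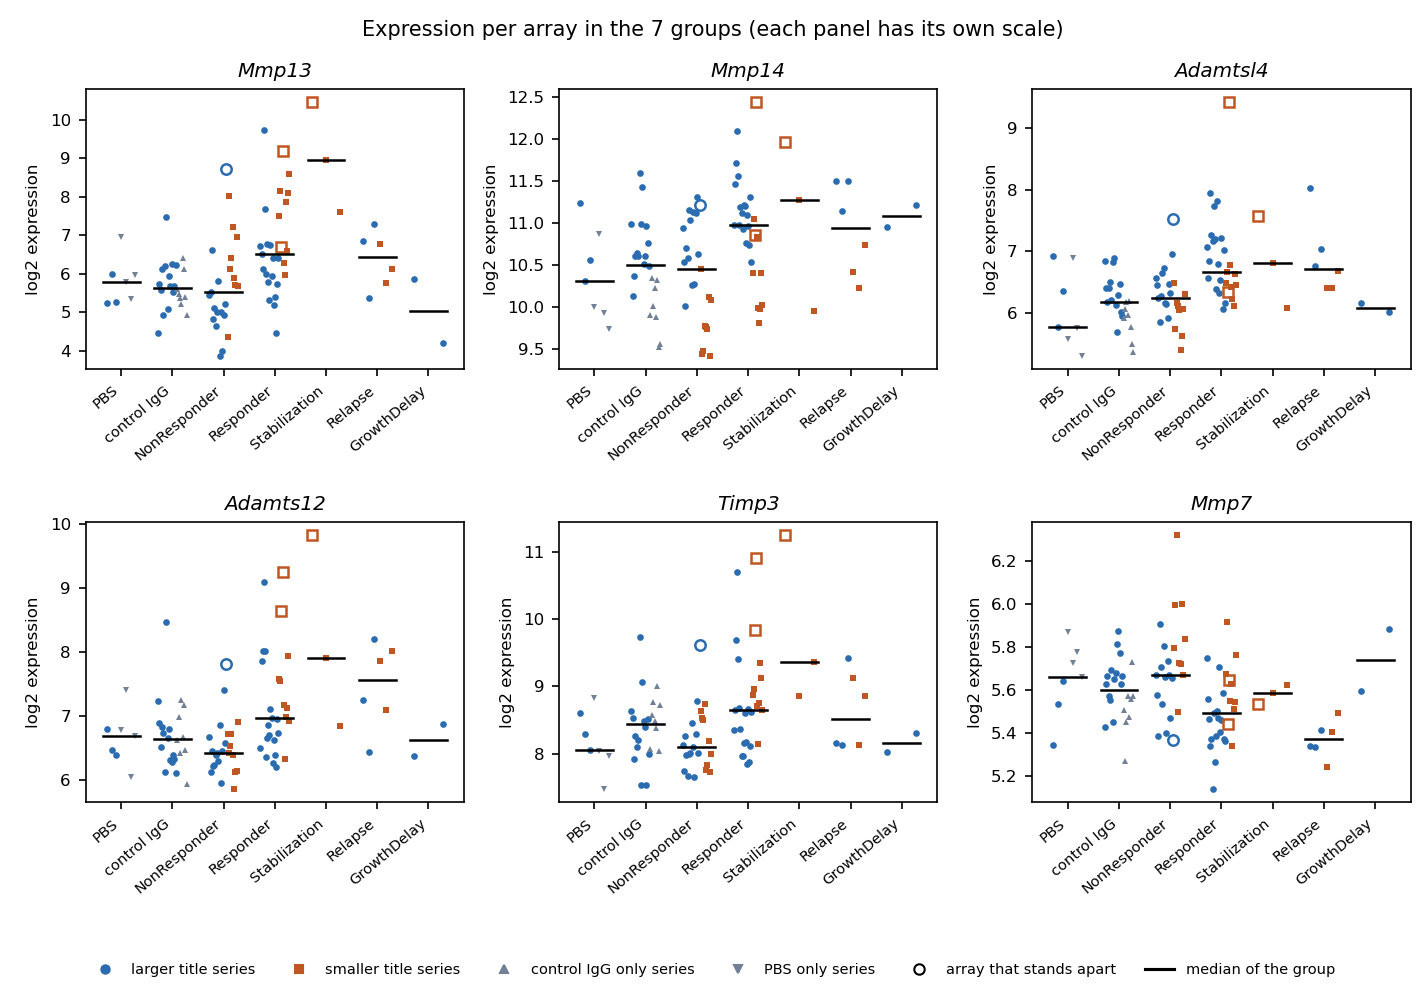
Log2 expression (vertical axis, own scale in each panel) of 6 genes in every array, by group; colour and shape give the title series, open symbols mark the 4 arrays that stand apart, and lines are group medians. For Mmp13, Mmp14, Adamtsl4, Adamts12 and Timp3 the Responder median lies above the NonResponder median with wide overlap, and for Mmp7 it lies below.

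Markers of stromal and immune cells moved with these genes. Between Responder and NonResponder tumours 7 of 7 fibroblast, 7 of 7 macrophage, 6 of 6 T cell and 4 of 6 endothelial markers rose, and 1 of 7 pigment-cell markers fell. The mean of the fibroblast markers ran from 5.95 to 10.50 in NonResponder tumours (median 8.0) and from 6.11 to 11.62 in Responder tumours (median 8.57). The mean of the macrophage markers ran from 8.25 to 11.81 (median 9.44) and from 8.42 to 12.01 (median 10.45). That of the endothelial markers ran from 5.66 to 7.74 and from 5.70 to 8.58. Their part in the differences above was not tested, and in bulk tissue fewer cells of a type and less RNA per cell cannot be told apart.

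The substrates and partners of the proteases were read from lists chosen with earlier results of these data known. Of 19 measured matrix substrates, 16 rose and 1 fell, with a median difference of 0.71. They included the collagen genes Col5a1 (0.95 ± 0.23), Col6a1 (1.26 ± 0.32) and Col1a1 (1.44 ± 0.38), with adjusted p of 0.00136, 0.00197 and 0.00253. Aggrecan (Acan), a cartilage proteoglycan, was the 1 that fell. Of 14 activators and regulators 6 rose and 2 fell. The leading ones were Serping1 (C1 inhibitor, 1.47 ± 0.25), Lrp1 (an endocytic receptor that clears proteases, 0.91 ± 0.20) and Furin (which removes the propeptide of MMP14, 0.42 ± 0.10). Of 10 membrane-anchored ADAM sheddases 6 rose, led by Adam17 (0.39 ± 0.09), Adam8 (1.05 ± 0.26) and Adam10 (0.23 ± 0.06).

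Within the title series the count of calls differed widely. In the smaller series 15 of the 40 genes were called between Responder and NonResponder, 11 higher and 4 lower, where 36.7% of all genes were called, 14.3% higher and 22.4% lower (with median centring 10 and 9, and 39.1% of all called genes higher against 20.3%). In the larger series 1 was called, Adamts8 at -0.23 ± 0.06 (adjusted p = 0.0382), where 2.63% of all genes were called, 0.616% higher and 2.01% lower (with median centring 0 higher and 6 lower, and 23.4% of all called genes higher against 8.61%). The arrays that stand apart weighed on both: without them the larger series had 13 members called and the smaller one 3, and 18 with both series together. The share of all genes called in these refits is not given here, so these counts do not describe the members alone. The difference between the series was itself tested, and it passed for none of the 40 genes (0 of 18193 over all genes; smallest adjusted p among the 40, 0.312; 4 of the 40 at an unadjusted p under 0.05).

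The Mmp13 difference was 0.96 ± 0.35 (larger series) and 1.24 ± 0.45 (smaller series). For Adamts12 it was 0.46 ± 0.24 and 1.12 ± 0.30, for Timp3 0.39 ± 0.22 and 0.92 ± 0.28, for Mmp14 0.39 ± 0.17 and 0.77 ± 0.21. In the smaller series Adamts12 ran from 5.86 to 6.91 in NonResponder arrays, and 9 of 10 Responder arrays exceeded all of them. Timp4 had opposite signs, -0.13 ± 0.07 (larger) and 0.26 ± 0.09 (smaller, adjusted p = 0.0214); in the latter, leaving out the arrays that stand apart took its call away. Adamts3, which processes procollagen (0.37 ± 0.11, adjusted p = 0.0104), Mmp17 (-0.21 ± 0.07) and Mmp1a (-0.17 ± 0.06) passed in the smaller series and not in the larger one or in both together. The difference between the series did not pass for any of them, and without the arrays that stand apart Mmp17 alone of these 3 passed.

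**Figure D3:**
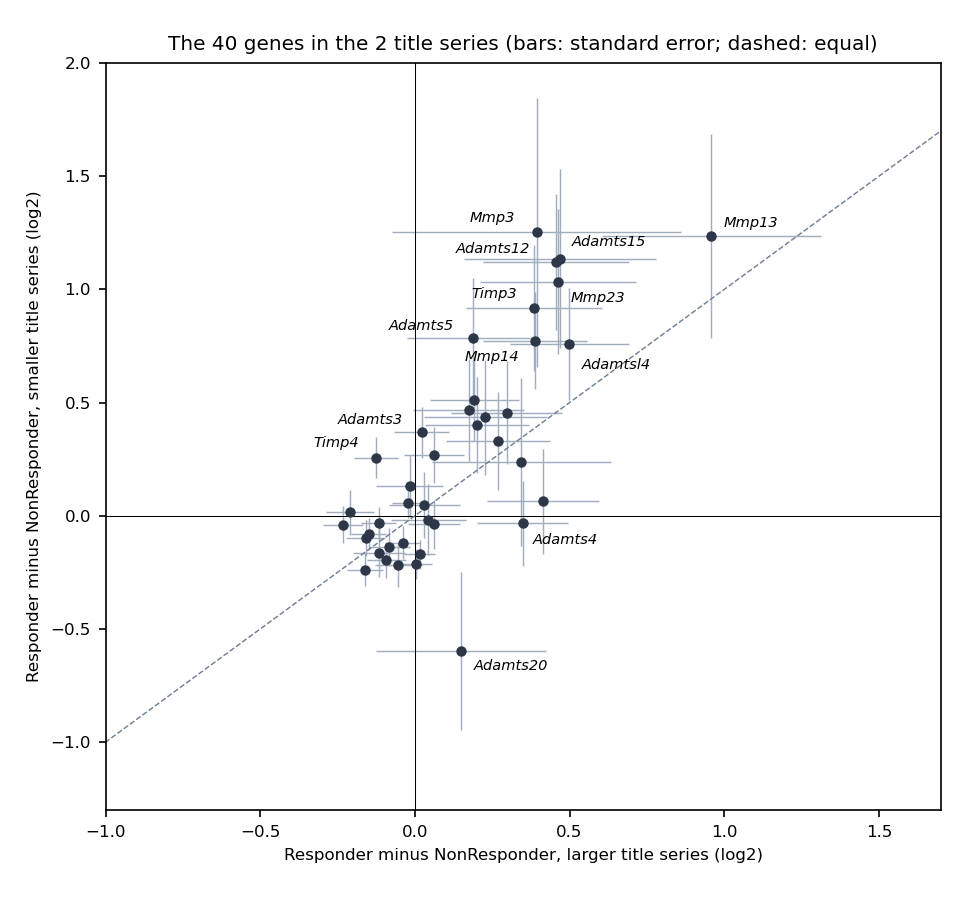
Responder minus NonResponder difference of the 40 genes in the larger title series (horizontal axis, log2) against the smaller one (vertical axis, log2); points are genes, bars are standard errors and the dashed line marks equal values. Mmp13 lies near 1 on both axes, Adamts12, Adamts15, Mmp23 and Mmp3 lie above the dashed line, and Timp4 and Adamts20 are among the genes with opposite signs in the 2 series.

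Against the isotype control, regressing tumours were higher in Adamtsl4, Mmp2, Mmp14 and Adamts1. Between Responder and control IgG 12 of the 40 genes were called, 4 higher and 8 lower, where 37.3% of all genes were called (14.5% higher, 22.8% lower). With median centring 4 were higher and 12 lower, and the share of higher genes among all called went from 38.9% to 24.4%. With quantile normalization 3 were higher and 2 lower, and that share was 41.5%. Adamtsl4 lay at 5.38, 6.18 and 6.90 in control IgG tumours, and 24 of 27 Responder arrays exceeded that median. Its rise was 0.67 ± 0.18 (adjusted p = 0.00592), and 0.60 ± 0.19 within the larger series alone. Mmp2 (0.51 ± 0.17), Mmp14 (0.48 ± 0.16) and Adamts1 (0.47 ± 0.18), a protease that cuts versican, also rose, with adjusted p of 0.0164, 0.0175 and 0.0312. Within the larger series Mmp14 no longer passed (0.41 ± 0.17, adjusted p = 0.0594). Control IgG medians were 11.01 for Mmp2, 10.49 for Mmp14 and 9.13 for Adamts1, and their ranges overlapped those of the Responder tumours.

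The genes lower in Responder than in control IgG tumours were Adamtsl1, Adamts16, Mmp20 (the enamel protease), Mmp7, Adamts18, Adamtsl3, Mmp17 and Adamts19. Adamtsl1 had the largest of these differences, -0.35 ± 0.08 (adjusted p = 0.00121), with medians of 5.79 and 5.62. The size and the call of the Adamtsl1 difference rest on the probe set. Its probe set with the largest SD gave 0.00 and its dimmest -0.21, and neither passed. The differences of the other genes ran from -0.28 for Mmp20 to -0.15 for Mmp17. The dimmer probe set of Adamts16 differed by -0.02 and those of Adamts18 by 0.01 and -0.13, and none of them passed. All 8 genes had means under the median gene, and among such genes 4.68% of all genes were higher and 32.1% lower. Mmp13 (0.62 ± 0.34), Adamts12 (0.44 ± 0.23) and Timp3 (0.32 ± 0.21) did not pass against control IgG. Timp2 differed by 0.00 on its brightest probe set, whereas the next brightest 2 passed at 0.38 and 0.40. Of the fibroblast markers 1 of 7 rose in this comparison, of the macrophage markers 6 of 7, and of the matrix substrates 1 of 19. Responder tumours serve in both comparisons, so their values are not independent.

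Growing tumours under the antibody did not differ detectably from control IgG. None of the 40 genes, and none of all 18193 (0%), was called by limma between NonResponder and control IgG, with 4 of the 40 at an unadjusted p under 0.05. Timp1 had the smallest p: it lay at 8.53, 9.32 and 11.29 in control IgG and at 8.15, 9.19 and 9.97 in NonResponder tumours, a difference of -0.79 ± 0.28 (adjusted p = 0.99). Mmp3 differed by -0.86 ± 0.46. Between control IgG and PBS, a comparison of 14 with 3 arrays of the larger series, 0 of the 40 genes were called by limma (0.0055% of all genes called; 1 of the 40 at an unadjusted p under 0.05), with Mmp1a at 0.21 ± 0.09 having the smallest p.

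Regrown tumours differed from growing ones in 7 of these genes. Between Relapse and Responder 0 of the 40 genes were called (0% of all genes; 1 of the 40 at an unadjusted p under 0.05). Between Relapse and NonResponder 7 were called, 5 higher and 2 lower, where 20.3% of all genes were called (8.43% higher, 11.9% lower). Mmp7 lay at 5.25, 5.37 and 5.49 in Relapse tumours, below the NonResponder median of 5.67 in all 6, and differed by -0.35 ± 0.07 (adjusted p = 0.00314). Adamts12 lay at 6.44, 7.56 and 8.20, a rise of 0.94 ± 0.30 (adjusted p = 0.0293). Adamts15 ran from 4.49 to 7.33 and rose by 1.06 ± 0.40 (adjusted p = 0.047). Mmp14 (0.61 ± 0.21), Mmp23 (0.90 ± 0.32) and Adamtsl4 (0.65 ± 0.25) rose and Mmp24 (-0.19 ± 0.07) fell, with adjusted p between 0.0393 and 0.0484. No other probe set of Mmp14 or Mmp23 passed (adjusted p from 0.0771 to 0.102). Another probe set of Mmp24 passed (-0.24), and its dimmest did not (-0.01). Timp2 differed by 0.02 on its brightest probe set, whereas the next brightest 2 passed at 0.56 and 0.57.

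The call of Mmp7 held without each Relapse array in turn, and the others did not. Without replicate 1, 3, 4 or 6 of the Relapse group 1 of the 40 genes was called, without replicate 5 3 and without replicate 2 8. Leaving out the 4 arrays that stand apart, none of them a Relapse tumour, raised the count to 16. Shares of all genes called in these refits are not given here, so the counts are no result about the members alone. With median centring 4 members were higher and 9 lower and with quantile normalization 0 and 3, and the share of higher genes among all called went from 41.5% to 10.8% and 25.1%. Relapse replicate 3 was the highest of its group in Adamts12, Adamts15, Adamts5, Mmp23, Timp1, Timp2 and Timp3, and replicate 2 the lowest in Adamts12, Adamts15, Adamts5, Mmp13 and Mmp23. In the smaller series, with 3 Relapse and 9 NonResponder arrays, Adamts1, Adamts12, Mmp2 and Mmp7 did not overlap between the groups, and 20.3% of all genes did not. In the larger series none of the 40 was without overlap, and 0.451% of all genes were. Of the fibroblast markers 3 of 7 and of the macrophage markers 3 of 7 rose with Relapse, and without the arrays that stand apart 7 of 7 and 5 of 7. The mean of the fibroblast markers ran from 8.04 to 10.17 (median 9.22), and their part was not tested.

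With Stabilization 2 of 3 stromelysins, 1 of 3 collagenases and 3 of 4 TIMPs rose, and no call was left without 1 of the 3 arrays. Between Stabilization and NonResponder 18 of the 40 genes were called, 17 higher and 1 lower, where 22.4% of all genes were called (10.5% higher, 11.9% lower). The median difference was 0.50 over the 40 genes and -0.09 over all genes, and 13 of the 18 differed by more than 1. Without Stabilization replicate 1, which stands apart, none of the 40 was called. Without replicate 2 there were 12 and without replicate 3 24. Adjusted p depends on all genes, and the share of all genes called in these refits is not given here. The counts are therefore no result about the members alone. With median centring 15 were higher and 3 lower, and the share of higher genes among all called went from 46.9% to 31.6%.

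The stromelysins Mmp3 and Mmp10 cut many matrix proteins and activate other MMPs. Mmp3 was at 12.40, 9.88 and 9.26 in Stabilization replicates 1, 2 and 3, above every NonResponder array (4.58, 6.61 and 8.99). Its values in replicates 2 and 3 lay below the highest PBS array (10.62). Its rise was 2.57 ± 0.82 (adjusted p = 0.0207), and the difference was 1.81 ± 0.92 without the arrays that stand apart (adjusted p = 0.216). Mmp10 was at 8.81, 6.03 and 5.78, against 5.22, 5.51 and 5.76 in NonResponder tumours, so that replicates 2 and 3 lay just above the highest of them, and below the highest PBS array (6.50). The rise of 1.28 ± 0.21 (adjusted p = 0.000147) shrank to 0.32 ± 0.16 without the arrays that stand apart (adjusted p = 0.207). Mmp13 was at 10.47, 8.96 and 7.62, and replicate 3 lay within the NonResponder range. Its rise was 2.76 ± 0.63 (adjusted p = 0.00302), and the difference was 2.16 ± 0.67 without those arrays (adjusted p = 0.0599). Mmp19, a protease of basement membrane, was at 8.47, 6.39 and 5.60 and rose by 1.40 ± 0.30 (adjusted p = 0.00204), and the difference was 0.66 ± 0.25 without those arrays (adjusted p = 0.107).

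Of the 4 TIMPs 3 rose. Timp1 was at 13.10, 10.31 and 10.83, above every NonResponder array (highest 9.97). Its values of 10.31 and 10.83 lay below the highest PBS (10.84) and control IgG (11.29) arrays. It rose by 2.21 ± 0.51 (adjusted p = 0.00327), and the difference was 1.46 ± 0.56 without the arrays that stand apart (adjusted p = 0.107). Timp3 was at 11.25, 8.86 and 9.37, and rose by 1.45 ± 0.39 (adjusted p = 0.00785), and the difference was 0.87 ± 0.38 without those arrays (adjusted p = 0.157). Within the smaller series all 3 lay above the 9 NonResponder arrays. Timp2 was at 12.29, 11.65 and 10.93, and rose by 0.67 ± 0.17 (adjusted p = 0.00688), and the difference was 0.37 ± 0.18 without them (adjusted p = 0.186). Timp4 did not pass (-0.18 ± 0.13). Over all NonResponder arrays Mmp3, Mmp10 and Timp1 were without overlap (0.291% of all genes), and in the smaller series Timp3 joined them (5.66% of all genes).

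Among the ADAMTS genes Adamts15 was at 9.42, 7.81 and 5.11 and rose by 2.30 ± 0.55 (adjusted p = 0.00399), and the difference was 1.51 ± 0.54 without the arrays that stand apart (adjusted p = 0.0888). Adamts12 was at 9.83, 7.91 and 6.84 and rose by 1.54 ± 0.42 (adjusted p = 0.00888), and the difference was 0.86 ± 0.42 without them (adjusted p = 0.197). Both had replicate 3 inside the NonResponder range. Adamts20, whose loss gives mice a white belt through the death of pigment-cell precursors, was the member that fell. It was at 3.29, 7.03 and 7.75 against 5.58, 8.12 and 8.68 in NonResponder tumours, a difference of -1.91 ± 0.49 (adjusted p = 0.00622). Without the arrays that stand apart it was -0.79 ± 0.31 (adjusted p = 0.119). Mmp14, Mmp23, Mmp9, Adamts3, Adamts4, Adamts5, Adamts6 and Adamts9 also rose, by 0.42 to 1.60, in the fit with all arrays. Without those that stand apart their differences were 0.10 to 1.11 and none passed. With all arrays, dimmer probe sets of Adamts3 (-0.01), Adamts6 (0.27) and Adamts12 (-0.01) did not pass. For Adamts9 the dimmest probe set passed (1.29) and the other did not (0.03). The other probe sets of Mmp14, Mmp23, Mmp9 and Adamts4 passed, as did those of Adamts5 except the dimmest.

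**Figure D4:**
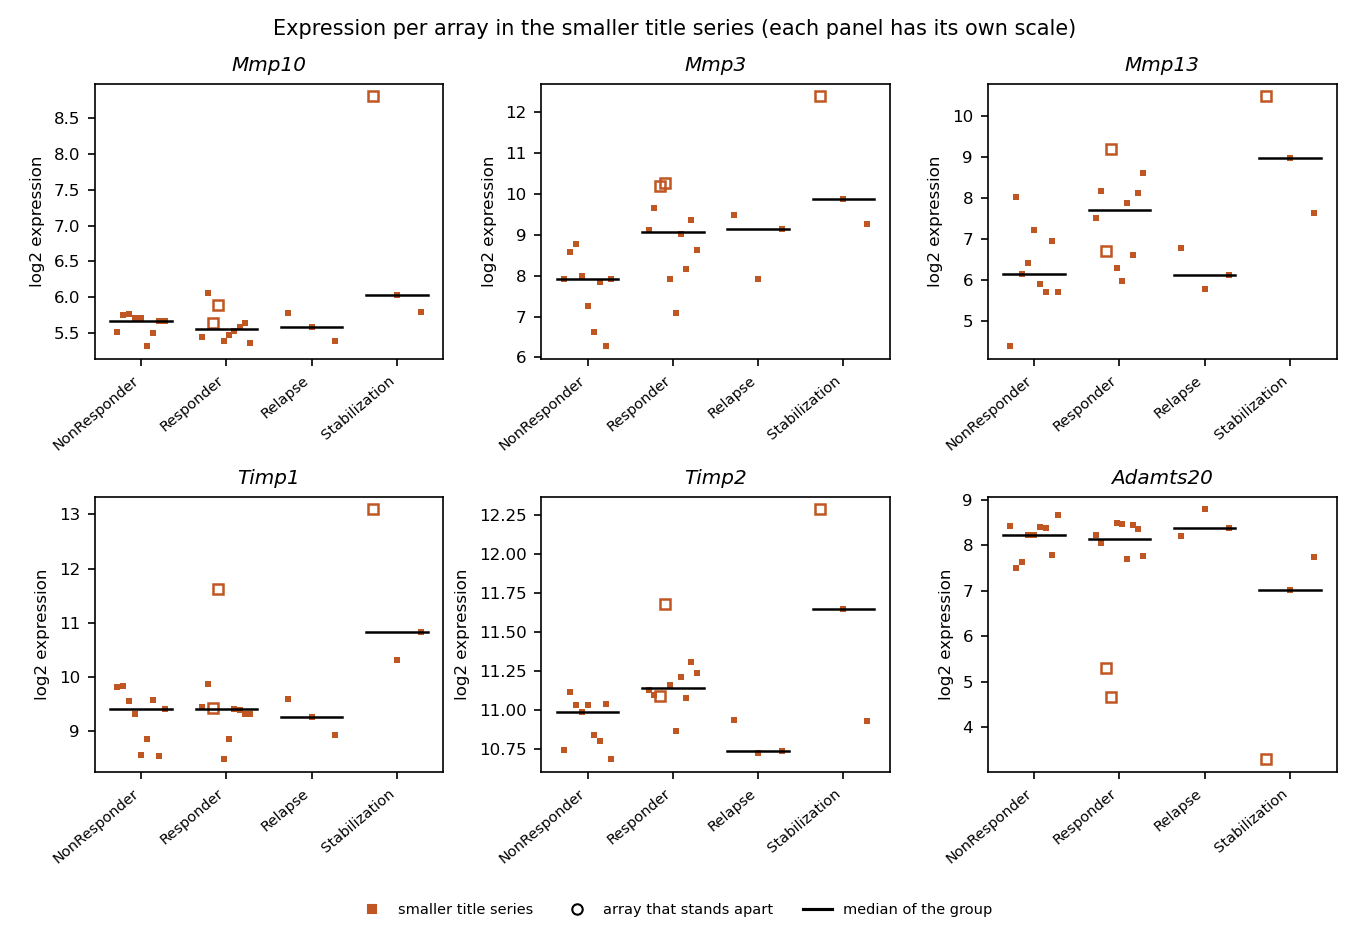
Log2 expression (vertical axis, own scale in each panel) of 6 genes in each array of the smaller title series, by group, with open symbols for arrays that stand apart and lines for group medians. Stabilization replicate 1 is the highest array of its group in Mmp10, Mmp3, Mmp13, Timp1 and Timp2 and the lowest in Adamts20.

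The cell type markers of these tumours moved too. Fibroblast markers rose for 5 of 7, macrophage markers for 7 of 7, neutrophil markers for 3 of 4 and endothelial markers for 4 of 6, and 2 of 7 pigment-cell markers fell; without the arrays that stand apart 1 macrophage marker passed and none of the others. The mean of the fibroblast markers was 11.90, 10.63 and 8.89 in replicates 1, 2 and 3, and that of the pigment-cell markers 7.72, 10.03 and 11.01. The part of these markers in the result was not tested. The plasminogen activator gene Plau (0.98 ± 0.18), its receptor gene Plaur (1.14 ± 0.25) and the syndecan gene Sdc1 (1.0 ± 0.23) were among 9 of 14 activators and regulators that rose with Stabilization, of which 0 of 14 passed without the arrays that stand apart. GrowthDelay tumours, with 2 arrays, differed from NonResponder tumours in 0 of the 40 genes (0% of all genes; 1 of the 40 at an unadjusted p under 0.05). Mmp13 was at 5.85 and 4.20 there and Mmp14 at 10.95 and 11.22.

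Genes of the family also varied together within groups. After the mean of each group in each title series was subtracted, 780 pairs were compared over the 90 arrays. The strongest pair was Adamts15 and Mmp23, with Pearson's r = 0.877 and Spearman's rho = 0.732. Each had a permutation p of 1e-05, the smallest that the 100000 permutations give (Benjamini-Hochberg adjusted p over the 780 pairs 5.42e-05 and 9.75e-05). Without the 2 arrays farthest from the median of Mmp23 r was 0.841, and without the 4 arrays that stand apart 0.835. Within the larger and smaller series it was 0.903 and 0.874. Adamts12 joined both of these genes (r = 0.865 with Adamts15 and 0.837 with Mmp23). Timp1 and Timp3 varied together (r = 0.832, rho = 0.717; 0.835 and 0.868 within the series). So did Mmp14 and Mmp2 (r = 0.805, rho = 0.800; 0.825 and 0.788 within the series). The most negative pair was Adamts20 and Timp2 (r = -0.658, rho = -0.601; -0.668 and -0.742 within the series).

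The same residuals were set against the mean of each of 12 marker lists, which gave 480 relations. Mmp23 followed the fibroblast markers (r = 0.911, rho = 0.885, each with a permutation p of 1e-05; adjusted p over the 480 relations 4.66e-05 and 6.49e-05; 0.887 without the 2 farthest arrays; 0.927 and 0.934 within the larger and smaller series). Adamts12 followed the endothelial markers (r = 0.883, rho = 0.769; 0.894 and 0.903 within the series), and Mmp3 the fibroblast markers (r = 0.837, rho = 0.808). Adamts20 followed the pigment-cell markers (r = 0.862, rho = 0.654, and r of 0.685 and 0.957 within the series). Without the 2 arrays farthest from the median of those markers r was 0.812, and without the 4 arrays that stand apart 0.670. Mmp13 had lower values, its highest being with the macrophage markers (r = 0.638, rho = 0.461). Every relation named here had a permutation p of 1e-05 for r. All of them share arrays and marker lists, and the lists overlap in what they follow, so they are a description of which genes vary together.

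**Figure D5:**
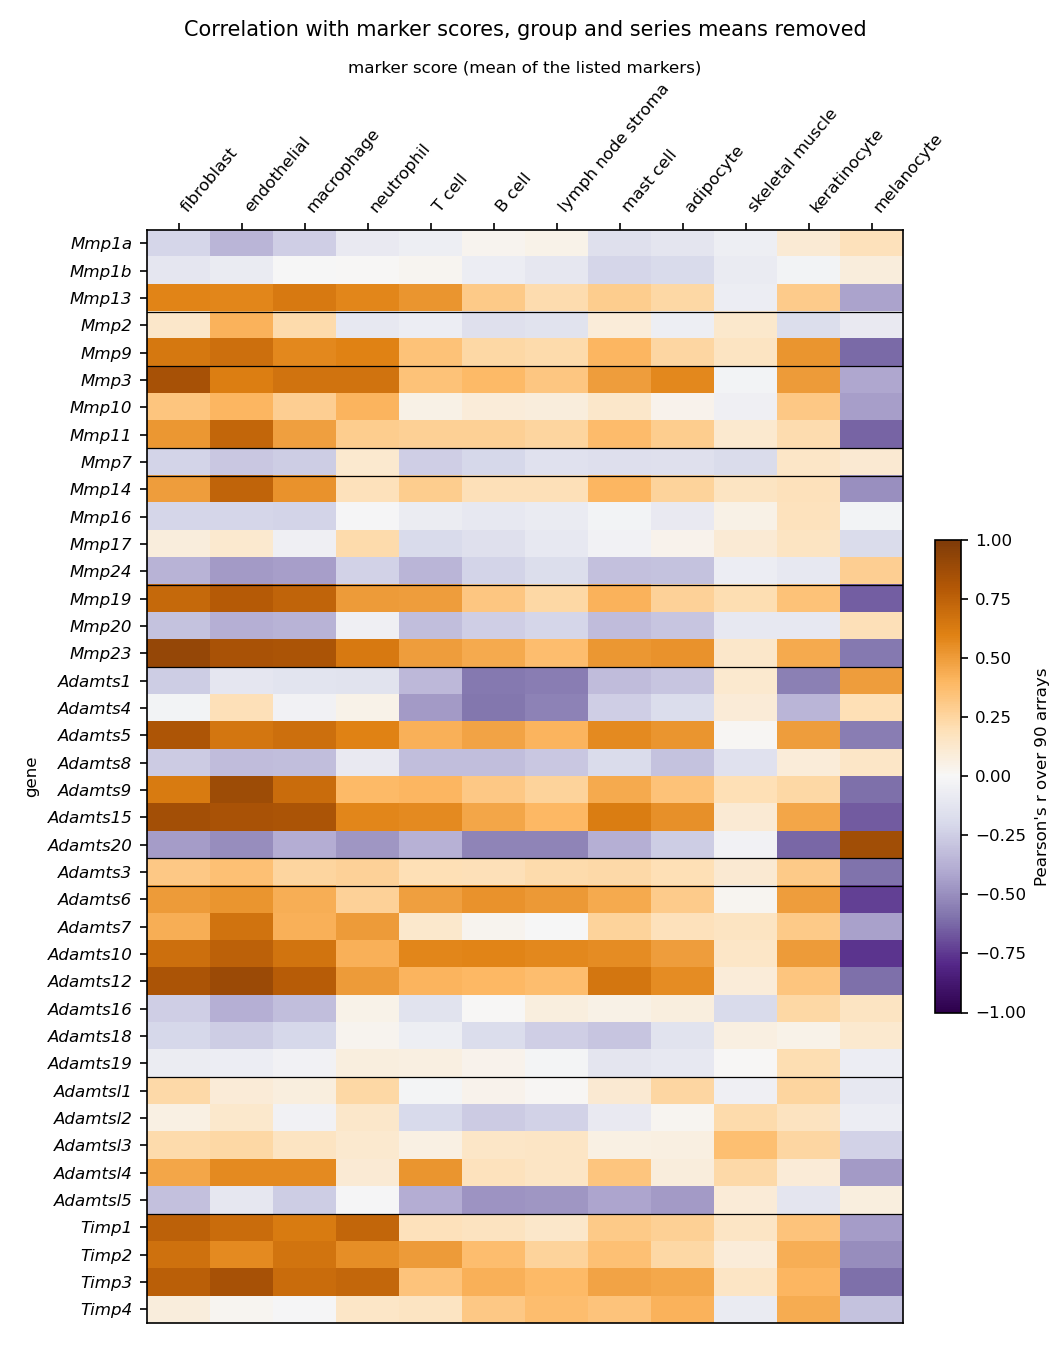
Pearson's r, over 90 arrays and after group and series means were removed, between the 40 genes (rows, by role) and the mean of 12 marker lists (columns). Mmp23 with fibroblast markers (0.911) and Adamts20 with pigment-cell (melanocyte) markers (0.862) are dark, while Mmp1a, Mmp1b, Mmp16 and Mmp17 are pale (r from -0.36 to 0.22).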

How the data were processed

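Gene expression was measured in 90 mouse melanoma allografts on 1 Affymetrix array each. The deposited values are log2 expression per probe set, made by the authors with RMA, and limma is also named, per the submitters' processing notes; versions are not given in the sources used here. Of 45101 probe sets 64 controls were left out, 34945 had 1 gene symbol, 932 several, and 9160 were not listed. Each gene was its probe set with the highest mean. No filter on low values was applied, so all 40 genes were tested.

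Differences were fitted over all arrays with group and title series as terms (limma 3.58.1 in R 4.3.3), with p-values adjusted over 18193 genes; the code was tested on simulated data. The within-series values came from 1 fit with a term for each group in each series. The number of arrays limits the precision. Members and lists were chosen with earlier results of these data known. Named were the members called (up to 20 between Responder and NonResponder, 8 in each other comparison), the 5 with the highest means, those that differ between series and all TIMPs. Promoters came from RefSeq (GRCm38.p6) and matched 25 of the 40 genes by symbol. Alternatives covered the series term, normalization, dim genes, the probe set, array weights, the intensity trend and left-out arrays.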

Additional observations from a re-analysis of the deposited data

Results flagged for a closer look

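In 66 combinations of a gene and a group of 4 to 10 arrays, the highest or lowest array was set against the others by its gap to the nearest one, and 5 stood far off; chance gives about 5% of such combinations. In the Relapse group replicate 3 was the highest in Timp1 (11.2, next 9.59), Adamts4 (8.06, next 7.70) and Mmp9 (6.00, next 5.38). Replicate 2 of that group was the lowest in Adamts1 (8.92, next 9.65). In the PBS group replicate 4 was the highest in Mmp10 (6.50, next 5.70). Groups with fewer than 4 or more than 10 arrays were not examined in this way.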

How the results depend on the processing

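Leaving out dim genes, which left 11 members to test, gave 5 of the 15 between Responder and NonResponder, 3 of the 12 against control IgG, 1 of 7 for Relapse and 8 of 18 for Stabilization against NonResponder. Within the series it gave 0 (larger) and 4 (smaller) between Responder and NonResponder and 2 against control IgG. Array weights raised these counts to 23, 22, 22 and 34, to 17 and 19 in the larger series for Responder against NonResponder and control IgG, and to 4 for control IgG against PBS. Quantile normalization gave 5 and, in the larger series, 3 against control IgG, 3 for Relapse, and 0 in the larger series against NonResponder. Median centring gave 13 for Relapse and 6 in the larger series. For Relapse against NonResponder, no title series term gave 2, series as a random block 4, and the mean of all probe sets or the probe set with the largest SD 3 each; the mean gave 2 in the larger series. A series fitted alone gave 0 (larger) and 4 (smaller). Leaving out 1 array gave 1 to 8 for Relapse and 0 to 24 for Stabilization. Without the 4 arrays that stand apart, an alternative chosen after seeing the data, the counts were 16 for Relapse, 0 for Stabilization, 13 in the larger and 3 in the smaller series. With the probe set of the largest SD, Adamtsl1 against control IgG turned to 0.0045 and Adamts16 in the smaller series to 0.0246. Shares of all genes called under these alternatives are not given here, so changed counts are not read as changes in these genes alone. Causes were not tested. No paired analysis was possible because the labels do not link arrays of different groups to each other. The labels carry no replicate numbers either, and those used here follow accession order.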
